A study of Rattus norvegicus with 32 samples.

Results

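Solute carriers were followed as 77 genes of the 23822 in a hippocampal count table of rats with a mutant Gfap gene. A gene was a member when the symbol given to its identifier in the authors' lists of changed genes began with Slc and a digit. Symbols came with 3289 of the identifiers, 80 of them fitted the pattern, and 3 (Slc17a3, Slc6a11 and Slc4a5) were left out by the rule. The lists were ranked on the contrasts reported here, mutant against wild type by sex and age, so the members were selected for differing. How many carriers changed out of all carriers cannot be read from them. Of the 77, 38 were listed for P56 males, 41 for P56 females, 49 for P21 males and 52 for P21 females, with 23 in all 4 lists and 27 in 1. For a listed member, its estimate in that comparison is a description without a p-value. For a member not listed there an FDR is given, and its absence from the kept part of the list bounds how far up the ranking it could stand.

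The rats were heterozygous for a missense mutation of the astrocyte intermediate filament gene (Gfap+/R237H, here R237H) or were wild-type littermates (WT, Gfap+/+), all of the Crl:CD(SD) background strain. Bulk hippocampus was taken from males and females at postnatal day 21 (P21) or 56 (P56) and sequenced after polyA enrichment with a stranded kit. There were 32 rats in 8 groups of 4, except that the labels gave 5 R237H and 3 WT P21 females. The mutation models Alexander disease, a disorder of astrocytes in which GFAP accumulates, and the comparison asks how gene expression differs early and later in the disease. The mutation is carried in the germline and the tissue was not sorted. In bulk tissue fewer cells of a type and less RNA per cell cannot be told apart, and age and collection cannot be told apart either.

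Solute carriers are membrane proteins that move small molecules down their gradients, or against them in exchange for, or together with, sodium, protons or another solute. In the brain they clear glutamate and GABA from the synapse, pass glutamine and lactate between astrocytes and neurons, bring amino acids and fuels across the vessel wall, and load cystine for glutathione. Some are best known in the brain from a given cell type, such as the urea and glutamate carriers of astrocytes or the lysosomal metal and peptide carriers of microglia and macrophages.

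The libraries held 21580397 to 55544871 expected counts (median 46157271), with the third lowest at 38503686. Levels are given as TPM (transcripts scaled to a fixed total), which are per length, and differences as log2 fold changes of R237H over WT ± SE from edgeR fits on the counts. Gfap was higher in R237H rats by 2.85 ± 0.22, 2.89 ± 0.14, 2.53 ± 0.08 and 2.89 ± 0.16 on that log2 scale in males and females at P56 and males and females at P21. TPM and the fit did not share a zero at P56: the median difference in log2 TPM over all genes was 0.40 in males and 0.26 in females, against -0.01 and -0.07 at P21, so TPM ratios at P56 exceed the fitted folds. No member that passed the test turned direction between the 2 scales. A gene is called higher or lower here where its edgeR FDR was under 0.01. In 5 rats (WT male P56 rat 2, WT female P21 rat 3, R237H female P56 rat 4, WT male P21 rat 1 and R237H male P56 rat 4) the choroid plexus transcript Ttr stood at 761 TPM or more, against 123 at most in the other 27. Results that changed when the 5 rats were left out are also given without them. The part of choroid plexus tissue in any value was not tested. All 8 P21 males shared 1 number in their titles, whose meaning is not stated.

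In P56 males 40 of 76 tested members were higher and 14 lower in R237H rats, against 16.8% and 11.1% of all 15097 genes tested. Females at P56 had 43 higher and 15 lower of 75 tested, beside 17% and 11.1% of 15033 genes. At P21 the counts were 41 higher and 13 lower of 75 in males (12.4% and 4.82% of 14953 genes) and 22 higher and 5 lower of 77 in females (7.06% and 0.753% of 15149 genes). Since the lists that named the members ranked these contrasts, nothing is read from the excess. The median log2 fold change of the members was 1.10, 1.03, 0.43 and 0.50 in these 4 comparisons, where the median of all genes tested was -0.01, -0.03, -0.01 and -0.01. Among members not listed for the comparison, 16 of 38 tested were called in P56 males (12 higher, 4 lower), 17 of 34 in P56 females (11 higher, 6 lower), 5 of 26 in P21 males (1 higher, 4 lower) and 0 of 25 in P21 females, where edgeR gave 9 at an unadjusted p under 0.05. Of all genes tested, 27.9%, 28.1%, 17.2% and 7.82% were called in either direction in those comparisons. In the same order, the lists gave symbols to 1989, 1842, 1986 and 1980 identifiers, and 4208, 4226, 2568 and 1184 genes were called here. In P21 females the list was longer than the calls, so an unlisted member could hardly be called. Nothing is read from that 0 of 25, and FDRs of unlisted members there carry the same limit. Unlisted members of the other comparisons were named by lists for the same mutation in another sex or age. The shares of all genes include the listed genes, so nothing is read from those counts either. No member was called in opposite directions in any pair of comparisons. Without the 5 rats of high Ttr some calls no longer passed, among them Slc22a12, Slc22a4, Slc24a3, Slc25a33, Slc25a39, Slc25a43, Slc25a45 and Slc3a1 in P56 males, Slc16a14, Slc22a4, Slc25a39, Slc25a45, Slc5a3, Slc8a2 and Slc9a9 in P56 females, Slc10a4 and Slc25a33 in P21 males, and Slc15a3, Slc20a1, Slc22a4, Slc29a3, Slc38a11, Slc38a3, Slc43a3, Slc44a2, Slc7a5 and Slc9a9 in P21 females, where 1 of only 3 WT rats is removed. Each of these kept its direction. Some were lost without other rats too, so a loss is not particular to the 5. Slc16a14 in P56 females was lost without any 1 of the 8 rats. Slc25a39 in P56 males and Slc10a4 in P21 males were each lost in 7 of 8 fits that left out 1 rat. Slc24a3, Slc25a33 and Slc3a1 in P56 males were kept in all such fits.

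In all 4 comparisons 20 members were higher and 4 were lower. The lower ones included the citrate carrier Slc13a5, the glutamine carrier Slc38a3 and the mitochondrial glutamate carrier Slc25a18. With the number in the titles fitted as a block, no member was called lower in P21 females. Both sexes agreed on 39 higher and 13 lower members at P56 and on 22 higher and 4 lower at P21. The members were selected on these contrasts, and the share of all genes with such joint calls was not counted. Nothing is read from these joint counts. At the edge of the lists, the listed members with the smallest change relative to its error were Slc2a5 in P56 males (1.50 ± 0.31), Slc22a12 in P56 females (2.34 ± 0.40), Slc43a3 in P21 males (1.45 ± 0.30) and Slc13a4 in P21 females (-1.28 ± 0.49). Just outside stood Slc26a10 in P56 females (-1.09 ± 0.16), Slc22a8 in P21 males (-0.32 ± 0.06) and Slc39a8 in P21 females (0.57 ± 0.16).

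**Figure D1:**
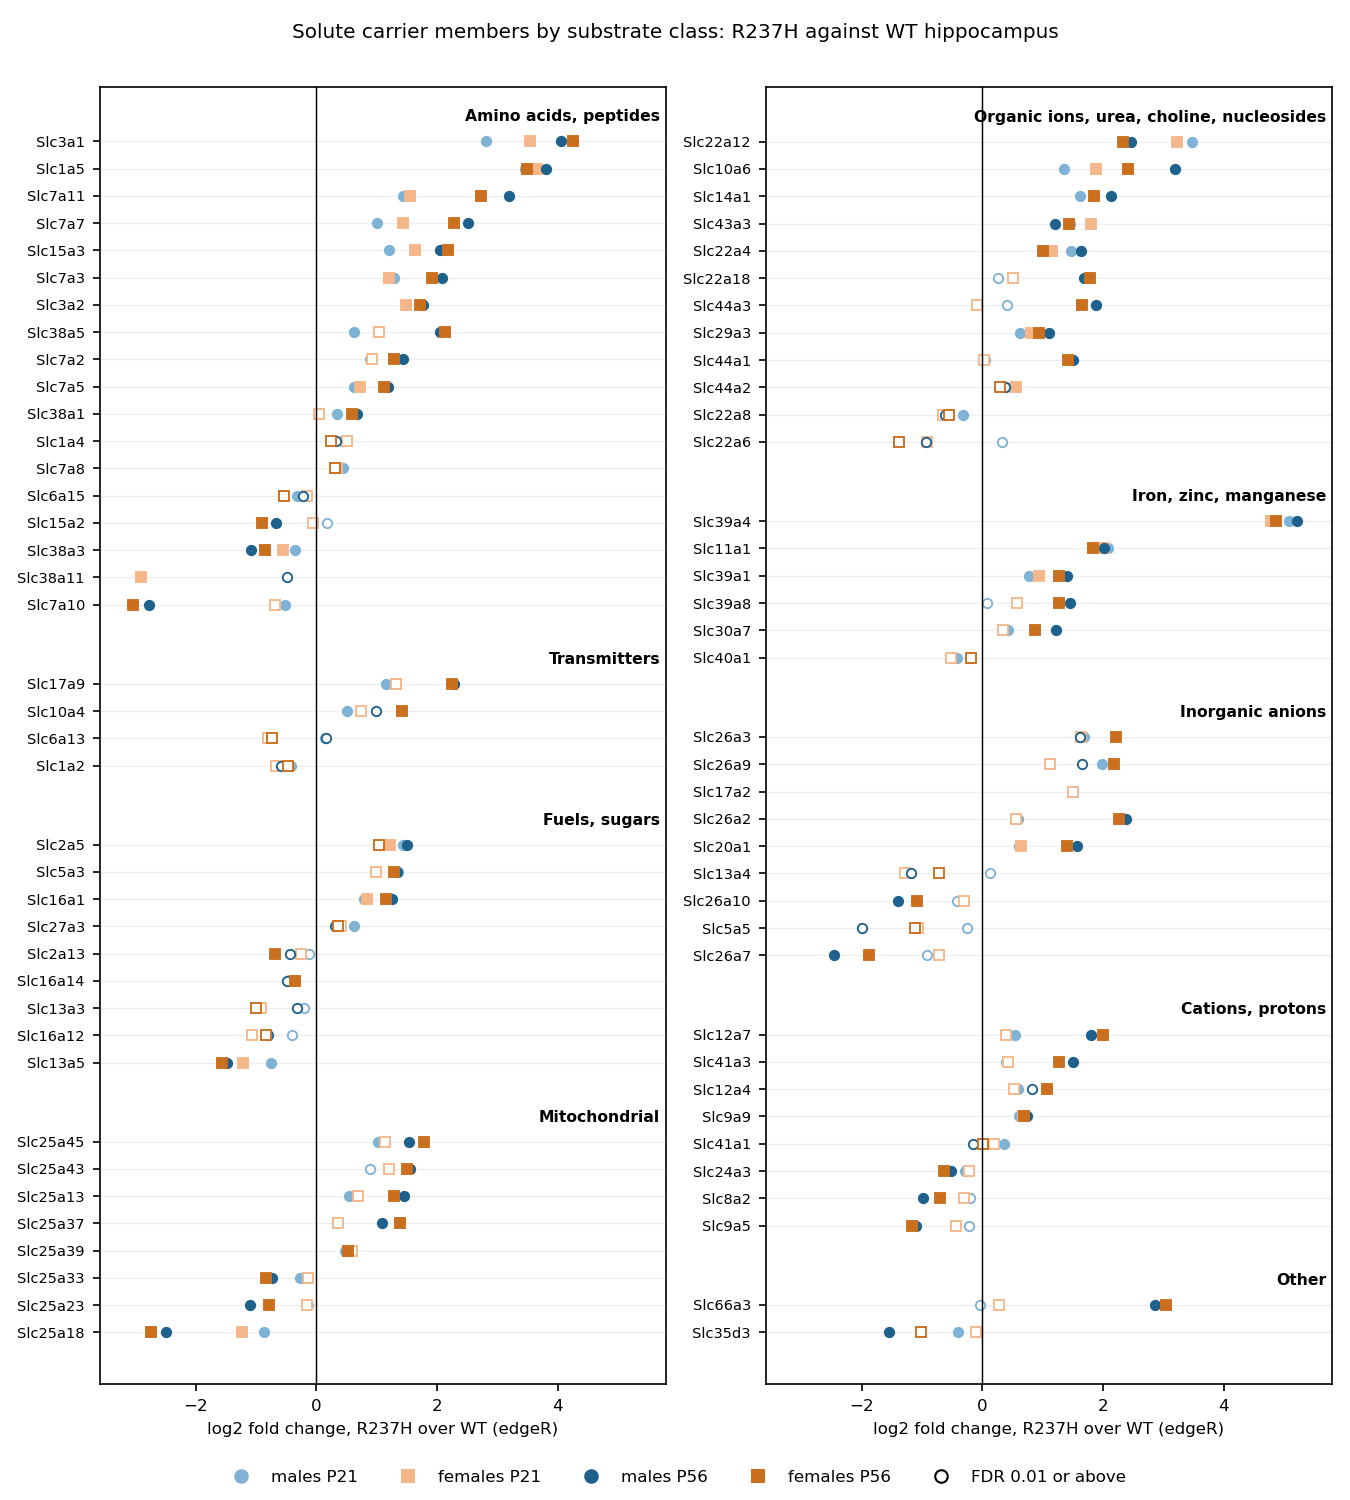
Log2 fold change (R237H over WT, x axis) of 76 of the 77 members in the 4 comparisons of sex and age, with members grouped on the y axis by substrate class; filled points passed an edgeR FDR under 0.01 and open points did not. Slc39a4 stands farthest to the right at 4.79 to 5.22, and Slc7a10 (-3.05) and Slc25a18 (-2.75) stand far to the left at P56 but nearer to 0 at P21.

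The amino acid and peptide carriers were the largest class, with 18 members. Counts by class, here and below, are of members selected on these contrasts. Nothing is read from them beside the shares of all genes given above. Called members were 11 higher and 3 lower in P56 males, 11 and 3 in P56 females, 13 and 3 in P21 males, and 8 and 2 in P21 females, with median log2 fold changes of 1.32, 1.28, 0.63 and 0.83. Carriers of glutamine and of peptides were on both sides, with Slc38a1, Slc38a5, Slc1a5 and Slc15a3 higher and Slc38a3 and Slc15a2 lower in at least 1 comparison.

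Several of these carriers work in pairs, a heavy chain (Slc3a1 or Slc3a2) that brings a light chain of the Slc7 family to the membrane. The promoters of 4 of these chains, all higher in every comparison, are shown with the antioxidant response element, the site at which the factor NRF2 binds. They were chosen after the values were seen, and the other Slc7 genes with an entry (Slc7a5, Slc7a8 and Slc7a10) held no match.

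The RefSeq promoters of GRCr8 run from 250 bases before the start to 50 after it, 5′ to 3′ on the strand of the gene, and capitals mark a match to the core of the antioxidant response element, TGACNNNGC on either strand. All 4 genes lie on the minus strand, Slc3a1 at chr6:15394700-15394999, Slc3a2 at chr1:215039621-215039920, Slc7a7 at chr15:31835634-31835933 and Slc7a11 at chr2:136668215-136668514.
Slc3a1: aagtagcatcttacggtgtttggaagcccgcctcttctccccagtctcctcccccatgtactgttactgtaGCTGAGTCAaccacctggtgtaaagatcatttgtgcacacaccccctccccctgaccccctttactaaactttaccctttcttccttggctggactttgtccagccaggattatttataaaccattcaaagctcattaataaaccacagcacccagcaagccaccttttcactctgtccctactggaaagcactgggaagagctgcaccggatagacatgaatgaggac
Slc3a2: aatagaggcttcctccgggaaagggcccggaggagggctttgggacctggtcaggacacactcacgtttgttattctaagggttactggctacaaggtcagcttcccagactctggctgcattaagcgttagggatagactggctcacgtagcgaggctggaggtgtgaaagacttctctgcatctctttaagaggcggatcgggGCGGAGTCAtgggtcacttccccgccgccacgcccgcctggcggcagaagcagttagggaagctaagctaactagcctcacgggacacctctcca
Slc7a7: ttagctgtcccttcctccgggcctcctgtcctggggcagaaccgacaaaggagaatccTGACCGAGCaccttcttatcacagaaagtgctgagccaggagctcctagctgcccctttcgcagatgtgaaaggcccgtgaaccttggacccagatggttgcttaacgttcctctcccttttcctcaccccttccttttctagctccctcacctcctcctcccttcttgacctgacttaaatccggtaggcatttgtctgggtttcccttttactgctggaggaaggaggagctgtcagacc
Slc7a11: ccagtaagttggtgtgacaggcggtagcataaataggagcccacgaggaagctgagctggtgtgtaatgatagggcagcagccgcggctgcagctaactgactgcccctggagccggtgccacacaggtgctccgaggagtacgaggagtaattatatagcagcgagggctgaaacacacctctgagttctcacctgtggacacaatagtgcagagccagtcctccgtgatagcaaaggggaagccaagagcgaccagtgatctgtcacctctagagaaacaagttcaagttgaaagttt

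Counted from the start, the match lay at -179 in Slc3a1, -45 in Slc3a2 and -192 in Slc7a7. The letters were not found in this window of Slc7a11, nor at a second Slc3a2 start (chr1:215048015-215048314). Among all RefSeq promoters 4038 of 33469 (12.1%) held the core, and 12 of the 59 promoters of the 56 members with an entry did. The core of the amino acid response element, TGATGNAA, stood in 3 of the 59 (Slc1a4, Slc38a1 and Slc9a9) and in 3.98% of all promoters. These matches describe letters in a window and not sites in use.

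Slc7a11 (ENSRNOG00000010210), the light chain that imports cystine in exchange for glutamate, was higher in every R237H rat than in any WT rat of its sex and age. Males at P56 stood at 134, 109.9, 113 and 112 TPM in R237H and 12.96, 15.3, 7.68 and 4.41 TPM in WT. Their female counterparts had 99.3, 128, 68.2 and 133 TPM against 12.6, 10.6, 11.9 and 17.7. This was a log2 fold change of 3.19 ± 0.28 in males and 2.73 ± 0.22 in females. At P21 the male values were 48.1, 46.05, 51.9 and 47.4 TPM in R237H and 20.2, 21.6, 14.2 and 14.9 TPM in WT. R237H P21 females had 30.9, 39.2, 48.8, 44.2 and 45.2 TPM and WT females 17.99, 14.6 and 12.1. The difference was smaller at this age, 1.44 ± 0.13 and 1.55 ± 0.19, and the age by genotype term in males was 1.73 ± 0.31 (edgeR FDR = 0.00121). In females that term was 1.18 ± 0.30 (edgeR FDR = 0.0243).

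Slc1a5 (ENSRNOG00000015948), an exchanger of glutamine, alanine, serine and cysteine, was low in WT hippocampus and well above it in R237H. R237H P56 males had 15.3, 14.4, 17.2 and 12.8 TPM, and WT males 0.98, 1.4, 0.52 and 0.49. Females of that age had 10.8, 12.1, 15.3 and 20.5 TPM in R237H and 1.1, 0.76, 1.23 and 1.09 in WT. No value of 1 genotype lay within the range of the other, at log2 fold changes of 3.80 ± 0.25 and 3.50 ± 0.21. P21 gave 9.89, 10.7, 8.83 and 8.77 TPM against 0.95, 0.91, 1.03 and 0.6 in males, and 9.63, 9.71, 13.8, 11.6 and 8.59 against 0.89, 1.02 and 0.73 in females. At P21 the log2 fold change, 3.45 ± 0.15 and 3.65 ± 0.19, was close to that at P56, and the age by genotype term did not pass the test in males (0.33 ± 0.28, edgeR FDR = 0.431) or females (-0.15 ± 0.26, edgeR FDR = 0.789).

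Slc3a1 (ENSRNOG00000007006), the heavy chain for cystine and cationic amino acids that is best known from kidney, was barely detected in WT rats. WT P21 males had 0.25, 0.16, 0.23 and 0.18 TPM and R237H males 1.55, 1.64, 1.46 and 1.16. At P56 WT males had 0, 0.03, 0 and 0.05 TPM against 0.5, 0.57, 0.18 and 0.56 in R237H. The R237H rats were all above WT at both ages and in both sexes, but at P56 the WT base rests on few reads and the fold is correspondingly loose. At P21 its log2 fold change was 2.81 ± 0.22 in males and 3.54 ± 0.53 in females, and it was 4.26 ± 0.63 in P56 females. In P56 males, where Slc3a1 was not listed, it was 4.05 ± 0.74 (edgeR FDR = 0.00165), and without the 5 rats of high Ttr its FDR was 0.0112.

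Slc3a2, the common heavy chain, was among the most abundant members and was 386 ± 28.1 TPM (SD, n = 4) in R237H P56 males against 87.8 ± 21.1 in WT. On the log2 scale it was higher by 1.77 ± 0.09 and 1.72 ± 0.12 in males and females at P56 and by 1.48 ± 0.08 and 1.49 ± 0.12 at P21. Its light chain for large neutral amino acids, Slc7a5, differed by 1.19 ± 0.12, 1.13 ± 0.12, 0.63 ± 0.07 and 0.72 ± 0.13. The last of these calls, in P21 females, was lost in 5 of 8 fits that left out 1 rat. Slc7a7, the light chain of macrophages that exchanges cationic for neutral amino acids, differed by 2.51 ± 0.16, 2.28 ± 0.27, 1.01 ± 0.14 and 1.43 ± 0.22. The 3 were higher in all 4 comparisons without overlap between genotypes. Slc7a8, the other light chain for neutral amino acids, was called in P21 males alone (0.44 ± 0.05). In TPM the R237H rats were all above WT for Slc7a8 in all 4 as well. The cationic carriers Slc7a2 and Slc7a3 were higher by 1.44 ± 0.16 and 2.09 ± 0.20 in P56 males and by 0.89 ± 0.09 and 1.29 ± 0.13 in P21 males. In P21 females Slc7a2 (0.93 ± 0.25) did not pass the test and its groups overlapped.

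Slc7a10 (ENSRNOG00000010938) went the other way. It is the light chain through which astrocytes release and take up glycine and D-serine. R237H P56 males had 4.81, 4.19, 5.48 and 4.3 TPM where WT males had 26.5, 26.2, 18.6 and 27.3, and females 2.04, 3.93, 6.72 and 5.02 where WT had 29.6, 25.6, 31.7 and 29.9. At P21 the values were 17.7, 19.7, 19.6 and 20.9 TPM in R237H males and 27.5, 26.7, 27.4 and 30.7 in WT males, and 23.00, 11.7, 14.3, 16.5 and 13.8 TPM in R237H females and 26.7, 27.96 and 24.6 in WT females. Every R237H rat was below every WT rat of its group, by a wide gap at P56 and a narrow one at P21. The log2 fold change was -2.78 ± 0.14 and -3.05 ± 0.25 at P56 and -0.53 ± 0.07 and -0.69 ± 0.15 at P21. In P21 females Slc7a10 was not called. The age by genotype term was -2.27 ± 0.14 in males (edgeR FDR = 1.39e-07) and -2.35 ± 0.31 in females (edgeR FDR = 0.000411).

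The glutamine carriers of the Slc38 family divided. Slc38a3, which exports glutamine from astrocytes, was lower in all 4 comparisons (-1.08 ± 0.12, -0.85 ± 0.10, -0.35 ± 0.07 and -0.55 ± 0.11), though in P21 females the call was lost in 5 of 8 fits that left out 1 rat. Slc38a5, of vessels and glia, was higher in 3 of them (2.04 ± 0.23, 2.13 ± 0.27 and 0.62 ± 0.11) and stood at 1.04 ± 0.24 in P21 females without passing. Slc38a1, which takes up glutamine into neurons, was not listed at P56 and was higher there by 0.67 ± 0.10 in males (edgeR FDR = 0.000529) and 0.58 ± 0.14 in females (edgeR FDR = 0.00723), and in P21 females it stood at 0.04 ± 0.15 (edgeR FDR = 0.917). The Slc38a1 call in P56 females was lost in 6 of 8 fits that left out 1 rat. Of the peptide carriers, the lysosomal Slc15a3 was higher throughout (2.05 ± 0.16, 2.17 ± 0.16, 1.20 ± 0.10 and 1.64 ± 0.30). Slc15a2, of the astrocyte membrane, was lower at P56 (-0.68 ± 0.15 in males, edgeR FDR = 0.00539, and -0.91 ± 0.15 in females) and not at P21 (0.18 ± 0.09, edgeR FDR = 0.185, and -0.05 ± 0.12, edgeR FDR = 0.846). In P56 males the TPM of Slc15a2 overlapped, and its call was lost in 5 of 8 fits that left out 1 rat. Of the rest, Slc1a4, an exchanger of serine and alanine, was called higher in P21 males alone (0.42 ± 0.06), though in TPM its R237H rats were all above WT in all 4 comparisons. The neuronal Slc6a15 was lower in P21 males (-0.33 ± 0.07). The scarce Slc38a11 was lower in P21 females (-2.91 ± 0.59), where R237H rats reached 0 to 0.04 TPM and WT rats 0.12 to 0.28. That call was lost in 7 of 8 fits that left out 1 rat.

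**Figure D2:**
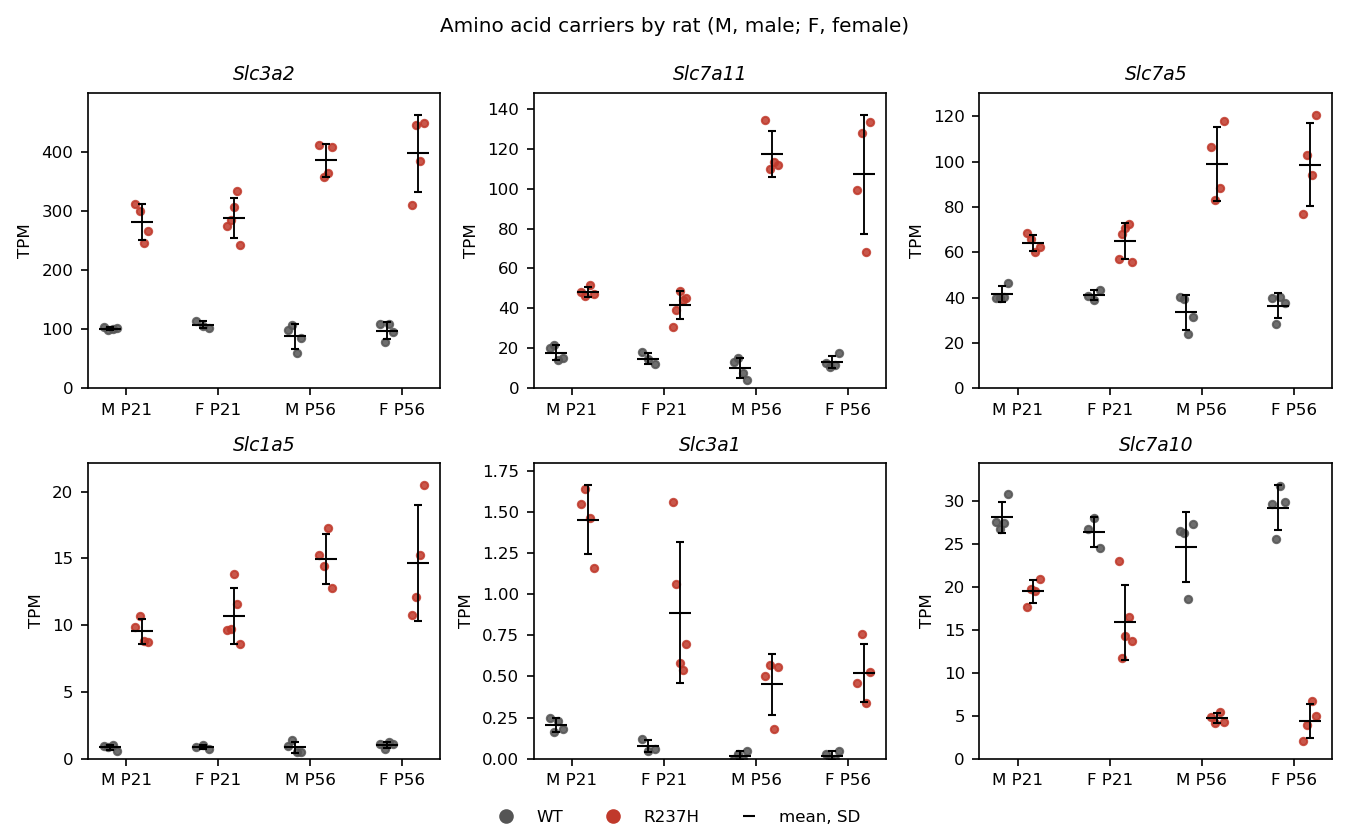
TPM (y axis) of 6 amino acid carriers in each rat, by sex and age (x axis: M, male; F, female), with WT in grey and R237H in red and bars at the mean and SD. Slc7a11 in R237H males spans 46.05 to 51.9 TPM at P21 and 109.9 to 134 at P56, and Slc7a10 in R237H rats lies below every WT rat of the same sex and age.

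Genes that share these carriers' pathways were drawn from lists of amino acid response and glutathione genes. Their symbols came from the same lists of changed genes, so they too were selected for change. Of 17 amino acid response genes 12 had a symbol, and 10 or 11 of those were higher in each comparison while Cbs, of cysteine synthesis, was lower (-0.89 ± 0.19 in P56 males). Trib3, a target of ATF4, was higher by 7.64 ± 0.41, 5.92 ± 0.33, 5.69 ± 0.31 and 5.71 ± 0.45. Asns, which makes asparagine, differed much less (0.38 ± 0.07 in P56 females and 0.35 ± 0.05 in P21 males). Of 10 glutathione and NRF2 genes 8 had a symbol and 6 or 7 were higher in each comparison, with 0 lower. Gclc, the catalytic subunit of the first enzyme of glutathione synthesis, was higher by 2.03 ± 0.12 and 2.10 ± 0.10 at P56 and 1.43 ± 0.09 and 1.54 ± 0.13 at P21. Hmox1, which degrades heme, was higher by 5.96 ± 0.25 and 5.38 ± 0.26 at P56.

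Slc1a2, the glutamate carrier that clears most synaptic glutamate and is made mainly by astrocytes, is 1 of 5 carriers of transmitters and vesicles and was called in P21 males alone. There the R237H rats had 265, 257, 259.9 and 274 TPM and the WT rats 353, 385, 317 and 369, with no overlap and a log2 fold change of -0.42 ± 0.06. At P56 R237H males ran from 78.4 to 205 TPM and WT males from 92.4 to 214, a spread within each genotype that covered most of the difference (-0.58 ± 0.29, edgeR FDR = 0.138). Females at P56 gave -0.48 ± 0.26 (edgeR FDR = 0.167). In P21 females every R237H rat (144 to 244 TPM) was below every WT rat (261 to 364 TPM), with a log2 fold change of -0.66 ± 0.18 that was not called. Slc17a9, which loads ATP into vesicles, was higher in 3 comparisons: R237H P56 males had 4.26, 4.94, 4.82 and 3.28 TPM and WT males 0.55, 0.63, 0.75 and 0.68, and the log2 fold change was 2.29 ± 0.27 and 2.24 ± 0.22 at P56 and 1.16 ± 0.22 in P21 males. Females at P21, not called, gave 1.32 ± 0.34, with 0.82 to 2 TPM in R237H and 0.5 to 0.75 in WT and no overlap. Slc10a4, a protein of synaptic vesicles in cholinergic and monoamine neurons, was higher in P56 females (3.35 to 4.62 TPM in R237H and 0.99 to 1.37 in WT, 1.43 ± 0.18). In males it was higher at P21 (0.51 ± 0.12, edgeR FDR = 0.00729, and 0.0159 without the 5 rats of high Ttr) and missed the threshold at P56 (0.98 ± 0.26, edgeR FDR = 0.0116). Slc6a13, a GABA carrier of the meninges, was called in none. Of 7 genes of glutamate and glutamine metabolism 3 had a symbol, with 2 lower in both sexes at P56, 3 in P21 males and 0 in P21 females, and 0 higher. Glud1, the mitochondrial glutamate dehydrogenase, differed by -0.70 ± 0.08 and -0.84 ± 0.08 at P56.

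The 9 carriers of fuels and sugars gave median log2 fold changes of -0.33, -0.36, -0.13 and -0.26, with 3 members higher and 1 lower in P56 males, 2 and 3 in P56 females, 4 and 2 in P21 males, and 2 and 1 in P21 females. Slc16a1 (ENSRNOG00000019996), which carries lactate, pyruvate and ketone bodies, was higher in all 4. R237H P56 males had 96.2, 108, 91.7 and 107 TPM and WT males 36.3, 33.4, 26.8 and 33.1. R237H P56 females had 83.3, 117, 83.3 and 101 and WT females 37.4, 31.9, 35.9 and 35.2. The genotypes were apart at both ages, with 102 to 127 TPM against 55.3 to 70.2 in P21 males, and the log2 fold change was 1.25 ± 0.10, 1.16 ± 0.11, 0.79 ± 0.09 and 0.84 ± 0.12.

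Slc13a5 (ENSRNOG00000014870), the sodium-coupled citrate carrier, was lower in all 4. R237H P21 females had 4.57, 2.2, 3.36, 4.6 and 3.38 TPM against 8.39, 9.77 and 10.6 in WT, and R237H P56 males 3.27, 2.41, 3.63 and 2.97 against 5.85, 5.91, 5.42 and 6.8. The log2 fold change was -1.48 ± 0.17 and -1.56 ± 0.16 at P56 and -0.76 ± 0.09 and -1.22 ± 0.17 at P21, without overlap. Slc2a5, the fructose carrier that marks microglia in brain, stood at 16.9, 25.3, 15.7 and 16.7 TPM in R237H P56 males and 3.65, 8.53, 2.28 and 6.33 in WT. It was higher in males at both ages (1.50 ± 0.31, or 1.31 and no longer called without R237H rat 2, and 1.44 ± 0.13) and in P21 females (1.22 ± 0.16), and in P56 females, where it was not listed, every R237H rat was above WT but the threshold was just missed (1.03 ± 0.26, edgeR FDR = 0.0101). Slc5a3, the sodium-coupled inositol carrier that responds to osmolarity, was not listed at P56 and was higher there by 1.34 ± 0.24 in males (edgeR FDR = 0.00157) and 1.28 ± 0.31 in females (edgeR FDR = 0.00756). When the 5 rats of high Ttr were left out, the FDR of the latter was 0.0147. That call in P56 females was also lost in 7 of 8 fits that left out 1 rat. Slc16a14, a relative of the lactate carriers without a settled substrate, was lower in P21 males (-0.36 ± 0.07) and, not listed, in P56 females (-0.36 ± 0.09, edgeR FDR = 0.00844, and 0.0313 without the 5 rats of high Ttr), and the fatty acid carrier Slc27a3 was higher in P21 males alone (0.62 ± 0.08). The proton-coupled inositol carrier Slc2a13 was lower in P56 females alone (-0.69 ± 0.09). Ldhb, a lactate dehydrogenase subunit and the 1 of 4 lactate genes with a symbol, was lower at P56 (-0.74 ± 0.11 and -0.74 ± 0.09).

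Of 6 carriers of iron, zinc and manganese, 5 were higher and 0 lower in both sexes at P56. Slc39a4 (ENSRNOG00000014314), a zinc importer best known from the gut, had the largest fitted fold change of the tested members in each comparison. At P56 R237H males had 6.63, 6.79, 5.72 and 7.18 TPM and WT males 0.11, 0.2, 0.15 and 0.08, and R237H females 4.4, 7.44, 7.82 and 5.68 against 0.29, 0.14, 0.16 and 0.1. At P21 R237H males had 4.37, 4.25, 3.25 and 3.93 TPM and WT males 0.21, 0.08, 0.13 and 0.07, and R237H females 4, 4.28, 5.48, 5.64 and 2.38 against 0.23, 0.18 and 0.07. The lowest R237H rat, a P21 female, was several times above the highest WT rat of any group. The log2 fold change was 5.22 ± 0.28, 4.87 ± 0.30, 5.08 ± 0.26 and 4.79 ± 0.41, and the age by genotype term was 0.13 ± 0.45 in males (edgeR FDR = 0.923) and 0.08 ± 0.54 in females (edgeR FDR = 0.951). The WT levels rest on few reads.

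Slc11a1 (ENSRNOG00000014956), which pumps iron and manganese out of the phagosome of macrophages, had 8.2, 11.2, 14.99 and 10.4 TPM in R237H P56 males and 1.97, 1.78, 1.76 and 2.68 in WT, and 9.51, 8.44, 8.01 and 8.27 against 2.05, 2.12, 1.6 and 2.27 at P21. Its difference was close at the 2 ages, 2.01 ± 0.25 and 2.09 ± 0.12 in males and 1.83 ± 0.22 and 2.02 ± 0.16 in females, with age by genotype terms of -0.10 ± 0.28 (edgeR FDR = 0.843) and -0.18 ± 0.26 (edgeR FDR = 0.753). Slc39a1, a broadly used zinc importer, had 90.9, 86.9, 73.8 and 104 TPM in R237H P56 males and 28.2, 32.4, 16.7 and 26.99 in WT, and 48.7, 64.01, 47.5 and 51.3 against 30.5, 31.3, 30.1 and 31.4 at P21. The genotypes did not overlap, and its log2 fold change was 1.41 ± 0.12, 1.28 ± 0.16, 0.78 ± 0.08 and 0.93 ± 0.09. Slc39a8, an importer of zinc and manganese, was higher at P56 in both sexes (1.45 ± 0.22 and 1.27 ± 0.22) and not at P21 in males (0.07 ± 0.13, edgeR FDR = 0.711) or females (0.57 ± 0.16, edgeR FDR = 0.0367). Slc30a7, which loads zinc into the Golgi, was higher in 3 comparisons (0.87 ± 0.14 in P56 females, not listed, edgeR FDR = 0.000692). The iron exporter Slc40a1 was called lower in P21 males alone (-0.41 ± 0.08). Of 10 genes of iron and metal binding 9 had a symbol, and 7 were higher and 1 lower in both sexes at P56, 8 and 0 in P21 males, and 5 and 0 in P21 females. The metallothionein Mt1, which binds zinc, was higher by 3.95 ± 0.26, 4.39 ± 0.36, 4.77 ± 0.21 and 4.72 ± 0.64. The ferritin heavy chain Fth1 was higher by 2.58 ± 0.20 and 2.52 ± 0.15 at P56 and 1.31 ± 0.09 and 1.65 ± 0.13 at P21.

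The 9 carriers of inorganic anions were mixed, with 2 higher and 2 lower in P56 males, 4 and 2 in P56 females, 4 and 0 in P21 males, and 1 and 0 in P21 females. Slc20a1 (ENSRNOG00000018567), a phosphate importer, was the 1 called in all 4. R237H P56 males had 251, 203, 129.8 and 378 TPM and WT males 74.3, 67.9, 45.6 and 62.2, and R237H females 148, 223, 153 and 316 against 68.96, 60.8, 61.5 and 63.1. The R237H rats at P56 spread widely, and the lowest was still above the highest WT rat. Slc20a1 had log2 fold changes of 1.57 ± 0.26 and 1.41 ± 0.18 at P56 and 0.60 ± 0.08 and 0.64 ± 0.13 at P21, where the call in females was lost without any 1 of the 3 WT rats (0.61 to 0.70) and without R237H rat 2, 3 or 4 (0.57 to 0.64). Slc26a2, a sulfate carrier, had 7.97, 8.42, 5.87 and 8.5 TPM in R237H P56 males and 1.31, 1.66, 0.96 and 0.66 in WT, but 3.17, 3.87, 3.95 and 3.26 and 2.7, 2.22, 2.39 and 2.15 at P21. It was higher by 2.38 ± 0.24 and 2.27 ± 0.32 at P56 and by 0.58 ± 0.12 in P21 males (not called without WT rat 2, 0.56, WT rat 4, 0.54, or R237H rat 3, 0.53), and in P21 females it overlapped (0.56 ± 0.24, edgeR FDR = 0.17).

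Slc26a7, an anion exchanger, was lower at P56. R237H males had 0.14, 0.32, 0.34 and 0.28 TPM and WT males 1.06, 1.78, 1.01 and 0.74, and R237H females 0.11, 0.17, 0.4 and 0.34 against 0.76, 0.62, 0.85 and 0.89. Both were without overlap, at log2 fold changes of -2.46 ± 0.35 in males and -1.89 ± 0.36 in females (not listed, edgeR FDR = 0.00191), and P21 gave -0.91 ± 0.27 in males (edgeR FDR = 0.0256) and -0.73 ± 0.36 in females (edgeR FDR = 0.24). Slc26a10, of the same family, was also lower, at -1.40 ± 0.14 and -1.09 ± 0.16 at P56. The scarce Slc26a3 and Slc26a9, chloride carriers of epithelia, were each under 1 TPM in every rat. They were higher in P56 females (2.22 ± 0.42, edgeR FDR = 0.00199, and 2.18 ± 0.34, edgeR FDR = 0.000578) and in P21 males (1.68 ± 0.24 and 1.98 ± 0.28). The iodide carrier Slc5a5, the sulfate carrier Slc13a4 and the phosphate carrier Slc17a2 (tested in P21 females only) were called in none.

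Among the 8 carriers of sodium, calcium, magnesium, protons and potassium chloride, Slc9a9, a sodium-proton exchanger of endosomes, was higher in all 4. It stood at 14.03, 13.04, 13.99 and 17.1 TPM in R237H P56 males and 7.51, 7.78, 4.86 and 6.72 in WT. Not listed at P56, it differed by 0.74 ± 0.11 in males (edgeR FDR = 0.000521) and 0.69 ± 0.15 in females (edgeR FDR = 0.00427, and 0.0105 without the 5 rats of high Ttr), and by 0.60 ± 0.09 and 0.67 ± 0.13 at P21. In P21 females its call was lost without the 5 rats and in 6 of 8 fits that left out 1 rat. In P56 females it was lost in 4 of 8 such fits. Slc12a7, a potassium-chloride cotransporter, had 8.71, 9.47, 8.02 and 11.97 TPM in R237H P56 males and 1.7, 3.99, 1.14 and 1.89 in WT, and 3.11, 3.4, 3.35 and 3.14 against 2.3, 2.07, 2.18 and 2.42 at P21. Its log2 fold change was 1.80 ± 0.27 and 1.99 ± 0.17 at P56 and 0.54 ± 0.08 in P21 males, and its relative Slc12a4 was higher in P56 females (1.07 ± 0.12) and P21 males (0.60 ± 0.06). Slc12a4 was not called in P56 males (0.82 ± 0.23, edgeR FDR = 0.015), where every R237H rat was above WT, or in P21 females (0.52 ± 0.13), where the groups overlapped. It was called higher in these as well once the 5 rats of high Ttr were left out, at 1.01 (edgeR FDR = 0.000954) and 0.67.

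Calcium exporters of neurons were lower at P56. Slc24a3, which exchanges calcium and potassium for sodium, had 65.7, 108, 112 and 96.4 TPM in R237H P56 females and 124, 113, 126 and 125 in WT, and 105, 121, 121 and 125 against 151, 137, 140.3 and 149 in P21 males. Not listed at P56, it differed there by -0.52 ± 0.09 in males (edgeR FDR = 0.00132, and 0.0128 without the 5 rats of high Ttr) and -0.63 ± 0.11 in females (edgeR FDR = 0.000879), and the TPM of males overlapped. The sodium-calcium exchanger Slc8a2 was lower at P56, with -0.98 ± 0.17 in males and -0.71 ± 0.18 in females (not listed in females, edgeR FDR = 0.00874, and 0.0253 without the 5 rats of high Ttr), again with overlapping TPM. Its call in females was also lost in 5 of 8 fits that left out 1 rat. The neuronal sodium-proton exchanger Slc9a5 was lower as well, at -1.11 ± 0.12 and -1.17 ± 0.16. The magnesium carrier Slc41a3 was higher at P56 (1.51 ± 0.16 and 1.27 ± 0.13) and Slc41a1 in P21 males alone (0.36 ± 0.07). Of 8 genes of the sodium pump, potassium and water balance 4 had a symbol, with 2 lower in each comparison and 2 and 1 higher in males and females at P21. The astrocyte potassium channel Kcnj10 was lower, at -1.15 ± 0.11, -1.30 ± 0.08, -0.56 ± 0.07 and -0.66 ± 0.12.

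The 12 carriers of organic ions, urea, choline and nucleosides had 9 higher and 0 lower in both sexes at P56, 7 and 1 in P21 males and 7 and 0 in P21 females, with median log2 fold changes of 1.56, 1.43, 0.51 and 0.67. Slc14a1 (ENSRNOG00000016753), the urea carrier of astrocytes and red cells, was higher throughout. Males at P56 had 147, 134, 127 and 152 TPM in R237H and 30.1, 24.2, 18.4 and 25.6 in WT, and females 119, 153, 106 and 135 and 33.5, 23.9, 26.3 and 32.8. At P21 R237H males had 61.2 to 82.2 TPM and WT males 21.6 to 25.03. It was the 1 of 7 astrocyte carriers that was higher in every comparison, by 2.14 ± 0.11, 1.85 ± 0.14, 1.61 ± 0.11 and 1.85 ± 0.12.

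Slc22a12, the urate carrier of kidney, and Slc10a6, a carrier of steroid sulfates, were low in WT rats. Slc22a12 had 1.77, 1.43, 1.6 and 2.1 TPM in R237H P21 males against 0.12, 0.2, 0.23 and 0.06 in WT, and 0.47, 0.78, 1.83 and 0.88 against 0.09, 0.15, 0.11 and 0.22 at P56. It was higher in all 4 comparisons, and its log2 fold change was larger at P21 (3.47 ± 0.30 and 3.23 ± 0.39) than at P56 (2.47 ± 0.51 in males, edgeR FDR = 0.00321, and 2.34 ± 0.40 in females), though the age by genotype term in females did not pass (-0.88 ± 0.57, edgeR FDR = 0.393). Without the 5 rats of high Ttr the FDR in P56 males was 0.0188, and without WT male rat 1 alone it was 0.0120. Slc10a6 had 4.92, 7.14, 7.51 and 9.37 TPM in R237H P56 males against 0.59, 1.12, 0.21 and 0.62 in WT, and 1.72, 3.12, 3.08 and 3.32 against 0.61, 1.39, 1.25 and 1.1 at P21, with log2 fold changes of 3.20 ± 0.36 and 1.36 ± 0.25. In females the log2 fold changes were 2.41 ± 0.18 at P56 and 1.89 ± 0.27 at P21. The lysosomal nucleoside carrier Slc29a3 (1.10 ± 0.17 in P56 males), the purine carrier Slc43a3 (1.80 ± 0.30 in P21 females) and Slc22a4, which carries ergothioneine (1.47 ± 0.23 in P21 males), were also higher in all 4, though in P21 females none of the 3 was called without the 5 rats of high Ttr, nor was Slc22a4 at P56. In fits that left out 1 rat, Slc22a4 was lost in 6 of 8 in each sex at P56. In P21 females Slc29a3 was lost in 6 such fits, Slc22a4 in 5 and Slc43a3 in 3.

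The choline carriers Slc44a1 and Slc44a3 were higher at P56. Slc44a1 (ENSRNOG00000055089), which oligodendrocytes use for choline, had 198, 212, 173 and 222 TPM in R237H P56 males and 57.5, 60.7, 40.3 and 43.4 in WT, and 179, 177, 133 and 229 against 59.3, 50.6, 45.5 and 47.3 in females. At P21 it had 103, 94.7, 96.5 and 96.96 TPM against 97.3, 92.8, 85.8 and 94.7 in males and 83.2, 72.00, 56.95, 61.4 and 57.8 against 74.5, 78.5 and 52.5 in females. R237H and WT were apart at P56 and overlapped at P21. The log2 fold change was 1.50 ± 0.11 and 1.42 ± 0.17 at P56 against 0.05 ± 0.06 (edgeR FDR = 0.567) and 0.03 ± 0.16 (edgeR FDR = 0.936) at P21. Slc44a3 had 1.88 ± 0.28 and 1.65 ± 0.20 at P56 and 0.40 ± 0.32 (edgeR FDR = 0.385) and -0.08 ± 0.26 (edgeR FDR = 0.895) at P21, and Slc44a2 was called at P21 only (0.39 ± 0.06 and 0.55 ± 0.09). The kidney and choroid plexus anion carriers Slc22a6 and Slc22a8 were lower in 1 comparison between them, Slc22a8 in P21 males (-0.32 ± 0.06, edgeR FDR = 0.00238). Slc22a18, of unsettled substrate, was higher at P56 alone (1.68 ± 0.24 in males, edgeR FDR = 0.000425, and 1.78 ± 0.25 in females).

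Of 8 mitochondrial carriers 5 were higher and 3 lower in both sexes at P56. Slc25a18 (ENSRNOG00000042731), which brings glutamate into astrocyte mitochondria, was lower in all 4 comparisons. R237H P56 males had 9.48, 8.04, 10.6 and 7.73 TPM and WT males 44.8, 38.9, 25.4 and 46.5, and R237H females 5.85, 7.19, 12.7 and 6.73 against 46.9, 43.1, 45.8 and 40.3. At P21 R237H males had 15.1, 26.2, 20.6 and 22.9 TPM and WT males 37.4, 34.8, 41.6 and 41.8, and R237H females 25.7, 11.2, 15.7, 20.1 and 15.7 against 42.9, 49.2 and 37.04. The genotypes were apart at both ages, and the gap was wider at P56. The log2 fold change was -2.49 ± 0.16 and -2.75 ± 0.21 at P56 and -0.88 ± 0.12 and -1.24 ± 0.18 at P21, with age by genotype terms of -1.63 ± 0.21 in males (edgeR FDR = 0.000109) and -1.50 ± 0.29 in females (edgeR FDR = 0.00609, and 0.0508 with a term of -1.27 without the 5 rats of high Ttr).

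Slc25a13, the aspartate-glutamate carrier, was higher in 3 comparisons. It had 11.8, 12.6, 10 and 11.8 TPM in R237H P56 males and 3.72, 4.69, 2.33 and 2.3 in WT, and the log2 fold change was 1.45 ± 0.16 and 1.29 ± 0.16 at P56 and 0.55 ± 0.10 in P21 males. Slc25a45, a low-abundance carrier, had 2.42, 2.68, 2.43 and 5.05 TPM in R237H P56 males and 0.6, 0.88, 0.72 and 1.21 in WT. Not listed at P56, it differed by 1.54 ± 0.37 in males (edgeR FDR = 0.00749) and 1.78 ± 0.38 in females (edgeR FDR = 0.00393). Leaving out the 5 rats of high Ttr, those FDRs were 0.0447 and 0.0121, and each also rose above 0.01 when single rats were left out, such as R237H male rat 4 (0.0222) and WT female rat 1 (0.0129). Slc25a23, the ATP-magnesium and phosphate carrier and the most abundant member in WT (322 TPM on average over 15 rats), was lower at P56 (-1.11 ± 0.16 in males and -0.79 ± 0.14 in females, not listed in the latter, edgeR FDR = 0.00152). The pyrimidine nucleotide carrier Slc25a33 was lower, at -0.74 ± 0.13 in P56 males (edgeR FDR = 0.0014, and 0.0148 without the 5 rats of high Ttr) and -0.83 ± 0.11 in females. Slc25a43, a carrier of the same family that was not listed at P56, was higher there by 1.54 ± 0.31 in males (edgeR FDR = 0.00308, and 0.0185 without the 5 rats of high Ttr) and 1.50 ± 0.29 in females (edgeR FDR = 0.00195). The iron carrier Slc25a37 was higher at P56 (1.10 ± 0.21, edgeR FDR = 0.00241, and 1.39 ± 0.18), as was the glutathione carrier Slc25a39 (0.51 ± 0.13, edgeR FDR = 0.00919, and 0.52 ± 0.12, edgeR FDR = 0.00637), though Slc25a39 was not called in either sex at P56 without the 5 rats of high Ttr. Its P56 calls, those of Slc25a39, were also lost in 7 of 8 fits that left out 1 rat in males and 6 of 8 in females. Slc25a39 was also higher in P21 males (0.47), a call kept without the 5 rats (edgeR FDR = 0.0018) and without any 1 rat.

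The other 2 members act inside the cell. Slc66a3 (ENSRNOG00000005126), a lysosome-related protein of the PQ-loop family, had 20.7, 22.98, 16.2 and 25.9 TPM in R237H P56 males and 1.73, 4.96, 1.18 and 1.83 in WT, and 13.7, 20.3, 17.2 and 23.6 against 2.23, 1.59, 1.77 and 1.78 in females. At P21 it had 1.51, 2.66, 1.27 and 1.39 TPM against 2.19, 1.9, 1.44 and 1.56 in males and 1.85, 1.8, 1.88, 2.36 and 1.26 against 1.45, 1.17 and 2.11 in females. Only at P56 were the genotypes apart. Its log2 fold change was 2.86 ± 0.34 and 3.05 ± 0.16 at P56 and -0.03 ± 0.23 (edgeR FDR = 0.933) and 0.28 ± 0.26 (edgeR FDR = 0.576) at P21. Slc35d3, of the nucleotide sugar carrier family, was lower in P56 males (0.97 to 1.4 TPM in R237H and 1.98 to 3.44 in WT, -1.55 ± 0.18) and at P21 (-0.40 ± 0.08, edgeR FDR = 0.00285). In females the groups overlapped at both ages (-1.01 ± 0.48, edgeR FDR = 0.111, and -0.11 ± 0.34, edgeR FDR = 0.894).

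**Figure D3:**
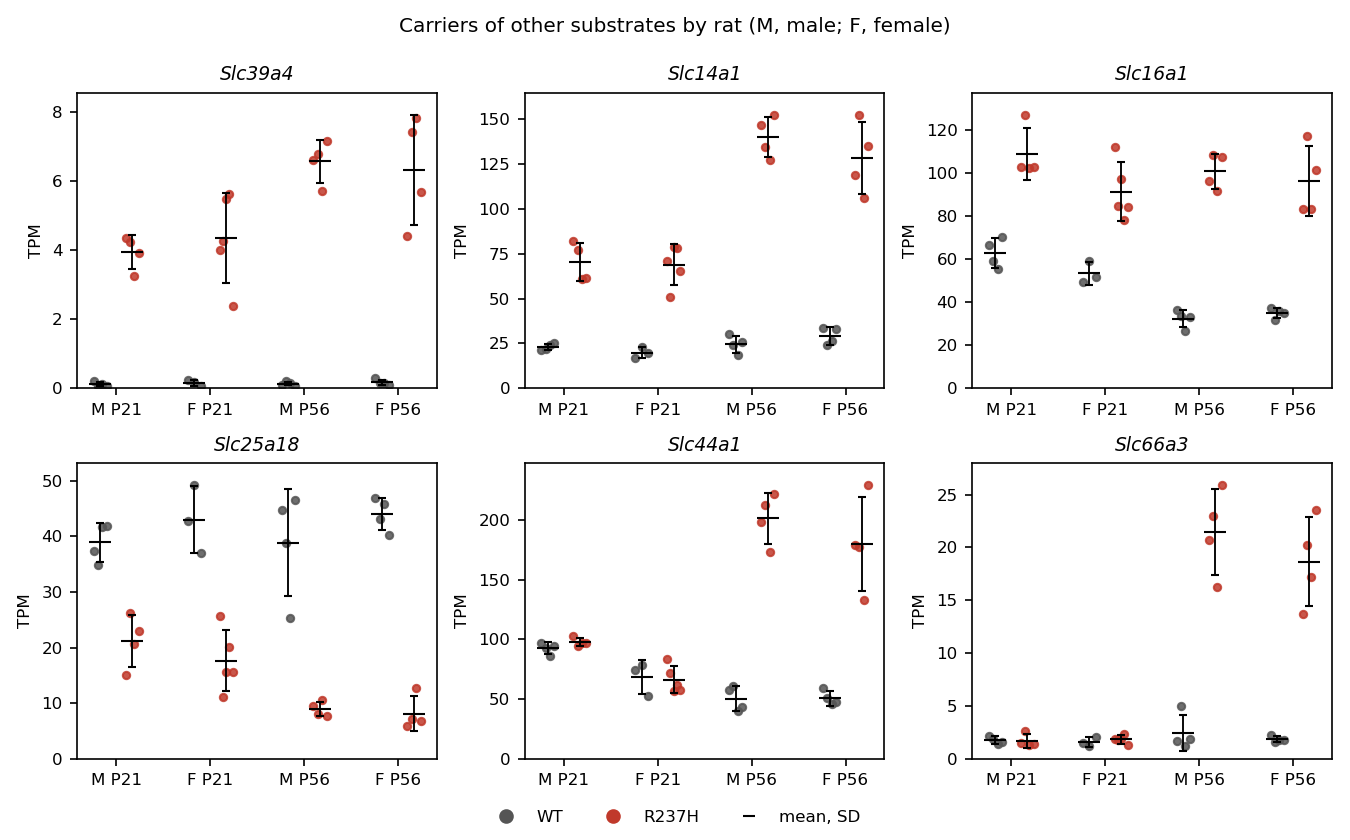
TPM (y axis) of 6 carriers of other substrates in each rat, by sex and age (x axis: M, male; F, female), with WT in grey, R237H in red and bars at the mean and SD. Slc39a4, Slc14a1, Slc16a1 and Slc25a18 separate the genotypes at both ages, and Slc44a1 and Slc66a3 separate them at P56 and overlap at P21.

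The members were also grouped by the cell in which each is best known, for 34 of the 77. All were selected on these contrasts, so nothing is read from the counts by cell. All 5 carriers of microglia and macrophages (Slc2a5, Slc7a7, Slc11a1, Slc15a3 and Slc29a3) were higher in males at both ages and in P21 females, and 4 of 5 in P56 females. Each of these calls was of a member listed for that comparison. Over all genes tested, 16.8% and 17% were higher in males and females at P56, and 12.4% and 7.06% at P21. Over 14 microglial markers, all with a symbol, the summed TPM of R237H rats ran from 2196 to 3526 in P56 males against 242 to 436 in WT, and 997 to 1221 against 373 to 389 at P21. In females the sums were 2074 to 3269 against 347 to 440.3 at P56 and 853 to 1506 against 320.1 to 375 at P21. The sums did not overlap between genotypes, and their part in the carrier values was not tested.

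The 7 astrocyte carriers were 1 higher and 4 lower in both sexes at P56, 2 and 4 in P21 males, and 1 and 2 in P21 females. Slc7a10, Slc25a18, Slc38a3 and Slc15a2 were the 4 lower at P56, and Slc14a1 the 1 higher. Of 11 astrocyte markers 8 had a symbol, 5 of them lower in each comparison and 2 higher in P21 males, and their summed TPM was 2224 to 2660.3 in R237H P56 males and 2725 to 3464 in WT. The 8 neuronal carriers were 2 higher and 4 lower in P56 males, 3 and 4 in P56 females, 3 and 3 in P21 males, and 1 and 1 in P21 females. Slc7a3 was the 1 higher in all of them. The sum of the 6 of 13 neuronal markers with a symbol was 1013 to 1125 TPM in R237H P56 males and 1277 to 1544 in WT. Of 5 vessel carriers 4 were higher in both sexes at P56, while Kdr, the 1 of 9 endothelial markers with a symbol, ran from 2.81 to 4.55 TPM in R237H males against 4.02 to 5.4 in WT. The part of any of these sums was not tested.

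For Slc44a1, the 1 carrier placed in oligodendrocytes, the 3 of 9 oligodendrocyte markers with a symbol summed to 3267 to 3587 TPM in R237H P56 males and 1034 to 2303 in WT, and to 2696 to 3215 and 3552 to 4132 at P21. R237H males were above WT P56 males and below it at P21, and the part of this in Slc44a1 was not tested. Both carriers placed in erythroid cells (Slc25a37 and Slc25a39) were higher at P56, while the 5 of 7 erythroid markers with a symbol summed to 111 to 179 TPM in R237H males and 451 to 1793 in WT. Of these 5 markers 4 were lower and 1 higher in both sexes at P56. The part of erythroid cells in either carrier was not tested. Each of the marker symbols also came from the lists of changed genes.

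The 6 carriers of meninges and choroid plexus (Slc6a13, Slc13a3, Slc13a4, Slc16a12, Slc22a6 and Slc22a8) were called once in the 4 comparisons, Slc22a8 in P21 males. Their levels in the rats of high Ttr differed from carrier to carrier. Slc13a4 ran from 9.07 to 53.8 TPM in the 5 rats above 500 TPM of Ttr (median 21.1) and from 2.3 to 12.8 TPM in the other 27 (median 5.23). Slc22a8 ran from 8.36 to 15.9 TPM in the 5 (median 12.2) and from 4.77 to 12.3 TPM in the 27 (median 8.16). In all 6 the 5 rats and the 27 overlapped. Slc6a13 had 6.02 to 18.3 TPM in the 5 and 2.96 to 15.6 in the 27, Slc13a3 had 4.55 to 14.99 TPM in the 5 and 2.63 to 15.2 in the 27, Slc16a12 had 1.63 to 5.2 TPM in the 5 and 0.68 to 2.6 in the 27 and Slc22a6 had 0.6 to 8.03 TPM in the 5 and 0.98 to 8.44 in the 27. The lowest rat of all for Slc22a6 was among the 5. Slc5a5, which was placed in no cell, reached 8.97 TPM in WT male P56 rat 2, where its group mates had 0.89, 0.79 and 1.75 TPM. Slc1a5, plotted for comparison, had 0.73 to 1.4 TPM in the 3 WT rats of high Ttr and 12.8 and 20.5 TPM in the 2 R237H rats. Without the 5 rats Slc22a8 was lower in P56 males (-0.73, edgeR FDR = 0.00756) and in P56 females (-0.65, edgeR FDR = 0.00885). Over 15 of 16 choroid plexus markers with a symbol, the summed TPM of WT P56 males ran from 68.01 to 7213 and that of R237H males from 102 to 944. For 9 of 13 markers of meninges and fibroblasts the sums were 89.4 to 674 and 317 to 541.

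**Figure D4:**
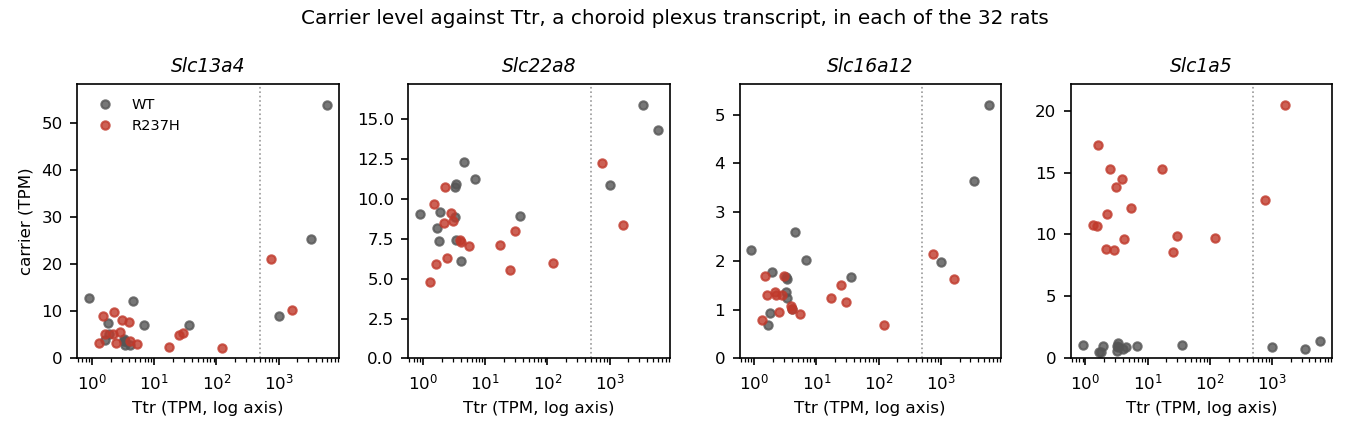
TPM of 4 carriers (y axes) against TPM of Ttr (x axes, log scale) in the 32 rats, WT in grey and R237H in red, with a dotted line at 500 TPM of Ttr. Slc13a4 is highest (53.8 TPM) in the rat with the highest Ttr, and Slc1a5 is apart by genotype on both sides of the line.

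The age by genotype term asks whether the R237H difference itself differed between P21 and P56. A member listed at 1 age only was selected for such a difference, so the test is given for members listed at both ages or at neither. In males it passed for 12 of the 27 listed at both ages (9 higher and 3 lower) and for 2 of 16 tested that were listed at neither, beside 10.1% of all 15370 genes tested (5.81% higher and 4.31% lower). In females it passed for 2 of 29 and 0 of 13, beside 2.15% of 15504 genes (1.49% higher and 0.658% lower), and edgeR gave 14 and 6 of them at an unadjusted p under 0.05. These members were still selected on contrasts of this mutation, at both ages in these same rats or in the other sex. Nothing is read from these counts beside the shares, and the FDRs of single terms carry the same limit. In males the difference grew at P56 for Slc10a6, Slc12a7, Slc15a3, Slc25a13, Slc26a2, Slc38a5, Slc39a1, Slc7a11 and Slc7a7, with terms from 0.61 ± 0.15 (Slc39a1, edgeR FDR = 0.00809) to 1.82 ± 0.45 (Slc10a6, edgeR FDR = 0.0091). It grew downward for Slc7a10, Slc25a18, Slc38a3 and Slc15a2, among others. Slc7a10 and Slc25a18 were the 2 that passed in both sexes. The term no longer passed without the 5 rats of high Ttr for Slc39a1 (0.55, edgeR FDR = 0.0337) and Slc15a3 (0.78, edgeR FDR = 0.0164) in males or for Slc25a18 in females (-1.27, edgeR FDR = 0.0508), so that of this pair Slc7a10 alone passed in both sexes. The P56 and P21 rats are different animals, and each comparison has its own WT rats.

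By calls alone, 8 members were higher at P56 in both sexes and at P21 in neither (Slc22a18, Slc25a37, Slc25a43, Slc39a8, Slc41a3, Slc44a1, Slc44a3 and Slc66a3), and 6 were lower so (Slc15a2, Slc25a23, Slc26a10, Slc26a7, Slc8a2 and Slc9a5). The number called at P21 in at least 1 sex and at P56 in none was 10. The matching shares of all genes were not counted, so nothing is read from these counts. A call at 1 age and not the other does not show a difference between ages.

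**Figure D5:**
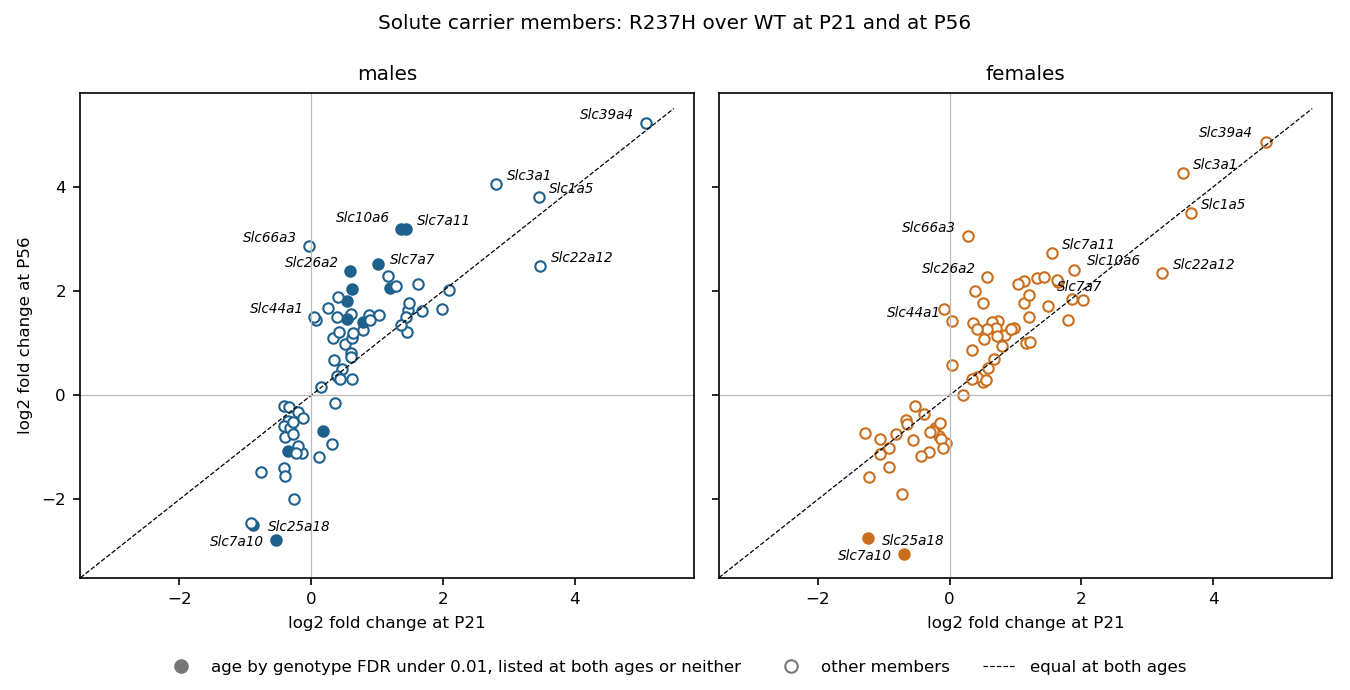
Log2 fold change (R237H over WT) of members tested at both ages, 1 member aside, at P56 (y axis) against P21 (x axis) in males and females, with a dashed line where both ages are equal; filled points passed an age by genotype FDR under 0.01 and were listed at both ages or neither. Slc39a4 and Slc1a5 lie near the line, Slc7a10 and Slc25a18 lie well under it on the lower left, and Slc66a3 is near 0 at P21 and at 2.86 and 3.05 at P56.

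The sex by genotype term was called for 0 of 76 members at P21 and 0 of 76 at P56, as for 0% of all genes tested at either age. At P21 edgeR gave 6 members at an unadjusted p under 0.05 (Slc13a4, Slc13a5, Slc22a6, Slc39a8, Slc5a5 and Slc6a13) and at P56 0, and DESeq2 and the likelihood-ratio test called 0 too. Of those 6, Slc13a4, Slc22a6 and Slc6a13 are among the carriers of meninges and choroid plexus. A term that misses the threshold does not show that the sexes were alike.

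Between the 2 ages of WT males, a comparison the rule did not use, 4 of 71 tested members passed, all lower at P56, beside 2.44% of 14848 genes (0.741% higher and 1.7% lower). Slc35d3 went from 6.51, 6.03, 5.95 and 6.39 TPM at P21 to 3.44, 3.06, 1.98 and 2.58 at P56 (-1.02 ± 0.11, edgeR FDR = 0.00107). Slc16a1 went from 66.7, 59.2, 55.3 and 70.2 to 36.3, 33.4, 26.8 and 33.1 TPM (-0.78 ± 0.10, edgeR FDR = 0.00233). Slc44a1 went from 97.3, 92.8, 85.8 and 94.7 to 57.5, 60.7, 40.3 and 43.4 TPM (-0.69 ± 0.09, edgeR FDR = 0.00235). All 3 were without overlap, and Slc40a1 was the fourth (-0.74 ± 0.11, edgeR FDR = 0.00443). Without the 5 rats of high Ttr, which leaves 3 WT males at each age, 0 were called. In WT females 0 of 72 passed, beside 1.55% of 14946 genes (0.415% higher and 1.14% lower), with 21 at an unadjusted p under 0.05 by edgeR and 8 called by DESeq2. The same WT rats are the controls of the R237H comparisons, so a member that was lower in WT at P56 and higher in R237H at P56, such as Slc44a1, shares those rats between the 2 statements.

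In WT hippocampus over both ages and sexes the most abundant members included Slc25a23 (322 TPM, 281 to 384 over 15 rats), Slc1a2 (241, 92.4 to 385), Slc24a3 (131, 80.9 to 155) and Slc3a2 (97.9, 59.2 to 114). The ranges of Slc1a2 and Slc25a23 overlap, as do those of Slc24a3 and Slc3a2. Of the 77 members 9 averaged over 50 TPM, 32 over 10 TPM and 14 under 1 TPM. Slc39a4 (0.147 TPM), Slc22a12 (0.177), Slc3a1 (0.0807), Slc1a5 (0.913) and Slc10a6 (0.953), all higher in every comparison, were among those under 1 TPM in WT.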

How the data were processed

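Hippocampal polyA RNA of 32 rats was sequenced on a stranded library. According to the study's methods, the authors demultiplexed with bcl2fastq 2.20.0.422, trimmed with Skewer, aligned with STAR and deposited RSEM expected counts and TPM for 23822 gene identifiers; the genome build and annotation release are not given in the sources used here. RSEM divides reads among near-identical copies, so members of close families carry that uncertainty. The authors' tables of fold changes gave symbols only, and their values were not used.

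Samples were grouped by genotype, sex and age from the labels. The labels give separate rats as replicates. Expected counts were rounded (5.68% of the values were not whole), filtered by expression within each comparison and tested with edgeR 4.0.16 (R 4.3.3, TMM, quasi-likelihood F test, Benjamini-Hochberg adjustment over all genes tested, threshold 0.01), each comparison fitted on its own rats. The deposited TPM values by the authors served for levels. The age by genotype and sex by genotype terms were fitted within a sex or an age. Totals of 21580397 to 55544871 counts per rat limit low genes most. On simulated counts with known changes in males at P56 (15097 genes), 48% of genes changed 2-fold and 88% of those changed 4-fold were recovered, with 1 of 14897 unchanged genes called. Few genes were changed in that simulation, in random directions, from dispersions fitted to the data. It therefore does not test the TMM scaling or the choroid plexus tissue of single rats.

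Substrate classes, likely cells, marker lists and partner lists were assigned from general knowledge, and the members and lists were chosen with earlier results of these data known. Members given in detail were up to 3 per substrate class, by number of calls and then mean absolute log2 fold change, among those with a group mean of at least 50 counts, which gave 26; further members are described to account for the 77, and 1 member and 2 other genes are not reported here by name. Alternatives were an FDR of 0.05, the likelihood-ratio test, DESeq2 1.42.0, other scaling and filters, all 32 rats in one fit, the number in the title as a block, and leaving out rats. Tables were handled in Python 3.11.15 with pandas 2.3.3 and plotted with matplotlib 3.10.9.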

Additional observations from a re-analysis of the deposited data

Results flagged for a closer look

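Among the carriers given in detail, 175 groups of 4 or 5 rats were examined for a rat far from its group mates by Dixon's ratio, and 10 rats were flagged; chance flags about 1 in 20 groups. The rat highest in its group stood at 134 TPM for Slc7a11 and 25.3 TPM for Slc2a5 and 5.05 TPM for Slc25a45 in R237H P56 males. In R237H P21 males the highest rat stood at 127 TPM for Slc16a1, 118 TPM for Slc20a1 and 5.84 TPM for Slc25a13, and the lowest at 1.72 TPM for Slc10a6. The others were 11.6 TPM for Slc11a1 in R237H P56 females, 1.73 TPM for Slc26a7 in WT P21 males, and 1.49 TPM for Slc35d3, the lowest of the R237H P21 females.

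Some carriers listed at both ages or at neither passed the age by genotype term of edgeR. These carriers were still selected on contrasts of this mutation, so their terms are a description. In males the term was positive for Slc10a6 (1.82), Slc26a2 (1.77), Slc7a11 (1.73), Slc7a7 (1.49), Slc38a5 (1.40), Slc12a7 (1.24), Slc25a13 (0.89), Slc15a3 (0.83) and Slc39a1 (0.61). It was negative for Slc7a10 (-2.27), Slc25a18 (-1.63), Slc15a2 (-0.88) and Slc38a3 (-0.74). In females it was negative for Slc7a10 (-2.35) and Slc25a18 (-1.50). The terms of Slc39a1 (0.55) and Slc15a3 (0.78) in males and of Slc25a18 (-1.27) in females no longer passed without the 5 rats of high Ttr. Age and collection cannot be told apart in these terms.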

How the results depend on the processing

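At an FDR of 0.05 the unlisted members called became 25 in P56 males, 26 in P56 females, 9 in P21 males and 1 in P21 females, the members called in P21 females 36 higher and 11 lower, the age by genotype calls 38 in males and 16 in females, and the WT age calls 10 in males and 8 in females. The likelihood-ratio test gave 34 higher and 11 lower in P21 females, 13 age by genotype calls in females, and 9 and 8 WT age calls in males and females. DESeq2 gave 11 lower in P21 females, 14 age by genotype calls in females, and 11 and 8 WT age calls. With all 32 rats in one fit the unlisted members called were 26 in P56 males, 0 in P21 males and 1 in P21 females, and the lower members 4 in P21 males and 8 in P21 females. Without the 5 rats of high Ttr, an alternative chosen after seeing the data, the unlisted members called were 10, 11 and 3 in P56 males, P56 females and P21 males, the lower members in P21 females 2, and the WT age calls in males 0. The cause of these shifts was not tested.

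Leaving out 1 rat at a time gave 35 to 40 higher, 13 to 14 lower and 11 to 16 unlisted calls in P56 males, 37 to 41, 13 to 15 and 11 to 14 in P56 females, 38 to 40, 9 to 14 and 1 to 5 in P21 males, and 12 to 27, 2 to 5 and 0 to 1 in P21 females. It gave 16 to 26 age by genotype calls in males and 4 to 9 in females, 1 to 5 WT age calls in males and 0 to 0 in females, and 0 to 0 sex by genotype calls at either age. Of the calls, 13 of 27 in P21 females, 10 of 54 in P21 males, 8 of 58 in P56 females and 7 of 54 in P56 males were lost without some rat. Over 104 fold changes of the 26 carriers given in detail, 1069 alternative values kept direction and side of the threshold, 60 lost it, 7 gained it and 8 changed sign, all for differences near 0 that were not called. These were Slc66a3 in P21 males (0.084 without the 5 rats of high Ttr, and -0.30 to 0.084 without 1 rat) and Slc35d3 in P21 females (0.29 without the 5 rats, and -0.39 to 0.29 without 1 rat).

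The numbers in the titles were not used to pair rats in the main fits. Correlations of deviations from the group mean, between genotypes within a number, were 0.32, -0.03, -0.09 and 0.01 in P56 males. They were 0.07 and 0.58 in P56 females, and 0.02, 0.10 and 0.52 in P21 females. Rats of different numbers averaged -0.01, -0.05 and -0.05 in these comparisons. With the number as a replicate block, P56 males gave 38 higher, 13 lower and 13 unlisted calls, P56 females 29, 9 and 4, and P21 females 10, 0 and 0. No block could be fitted in P21 males, which share 1 number. Depth limits the members under 1 TPM in WT, whose fitted folds rest on few reads, and TPM keeps no depth of its own.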
